A study of Mus musculus with 4 samples.

Results

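Cytosolic ribosomal protein genes encode the proteins that, with ribosomal RNA, build the ribosome of the cytoplasm. They were taken here as the rows whose symbol begins with Rpl or Rps and a digit, with Rplp0, Rplp1, Rplp2 and Rpsa, leaving out pseudogene symbols that contain -ps and the Rps6k kinases. This gave 92 of 25522 genes in the table without tetracycline and 91 of 26085 in the table with tetracycline, with 91 in both (Rpl6l was listed in the first only). By their known roles, 77 are structural proteins of the ribosome (43 of the large subunit, 31 of the small subunit and the 3 stalk proteins). The other members are 14 copies or paralogs and Rps19bp1, a nucleolar protein that shares the name.

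RNA came from epithelial cells of small-intestinal crypts, pits between the villi where stem cells reside. The mice were C57BL/6J males, 9 weeks of age. The 4 labelled groups were fed mice and mice fasted for 24 hours, each either untreated or given tetracycline (an antibiotic) for 21 days, and the labels list 1 sample in each group. The design text gives the purpose of the antibiotic as depletion of the bacteria it abbreviates as AKK. Crypts were freed with EDTA and made into single cells with trypsin, and the library kit keeps no strand. What was analysed is the authors' own pair of fasting comparisons. No column gives the direction of a fold change. Fasted over fed was assumed, because the tables' names put fast before fed. All directions reported here rest on that assumption.

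The deposited means are averages of whole counts divided by size factors, and they were precise enough to recover the counts of the libraries behind them: 2 fasted and 2 fed libraries in each table. The sources used here do not say whether these are separate mice or cultures, so the spread between them may be technical. They are called fasted 1, fasted 2, fed 1 and fed 2 here, where 1 is the library with the larger size factor of its side. The recovered counts cannot be tied to a labelled sample, and so enter no test. They came to between 41958271 and 58017986 per library over the decoded genes, of which 1943253 to 4683005 were from structural ribosomal protein genes, so counting error is small for all but the rare copies.

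Ribosomal protein genes are among the most abundantly transcribed genes of dividing cells, and nearly all of their products are present once in each ribosome. Their mRNAs begin with a run of pyrimidines, the terminal oligopyrimidine tract (TOP), through which the mTOR kinase and the binding protein LARP1 adjust their translation and stability to nutrients. In the intestinal crypt, where cells divide daily, ribosome production is a large part of the biosynthetic load.

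No ribosomal protein gene passed the authors' test of fasting in either table, at an adjusted p under 0.05. Without tetracycline the structural genes lay close to 0, with a median log2 change of 0.15, whereas with tetracycline all 77 had a positive change and the median was 0.61, a ratio of 1.53. The 77 genes kept to a narrow band in each table. With tetracycline fasted 1 was the highest library for 76 of the 77 and fed 1 the lowest for 74. Without it fasted 2 was the highest for 71 and fasted 1 the lowest for 58. The 77 genes are thus not independent observations.

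In the authors' deposited table without tetracycline, 0 of 87 members with an adjusted p were called by DESeq2's Wald test, where 2.27% of 18100 genes were. In their table with tetracycline 0 of 87 members were called, where 0.600% of 17993 genes were. At an unadjusted p under 0.05 the members numbered 0 without and 3 with tetracycline (Rplp0, Rps14 and Rps18), against backgrounds of 10.8% and 5.34% of genes. The lowest adjusted p of any member was 0.496, for Rps27l without tetracycline. The median standard error of a structural gene was 0.29 without and 0.40 with tetracycline on the log2 scale.

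Over members whose mean reached 1, the median log2 change was 0.13 without tetracycline (91 genes) and 0.59 with it (91 genes). Over all genes with an adjusted p the medians were 0.01 and -0.02. Among the structural genes 71 of 77 had a positive change without tetracycline, where 50.5% of all tested genes did. The 6 with a negative one were Rpl11, Rpl19, Rpl27, Rpl38, Rpl41 and Rps2. With tetracycline it was 77 of 77, where 48.2% of all tested genes did. The structural genes spread little, with an SD over genes of 0.12 without and 0.11 with tetracycline. Genes whose mean reached 5000, a more similar level, had SDs of 0.50 and 0.53 and medians of 0.01 and 0.07.

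**Figure D1:**
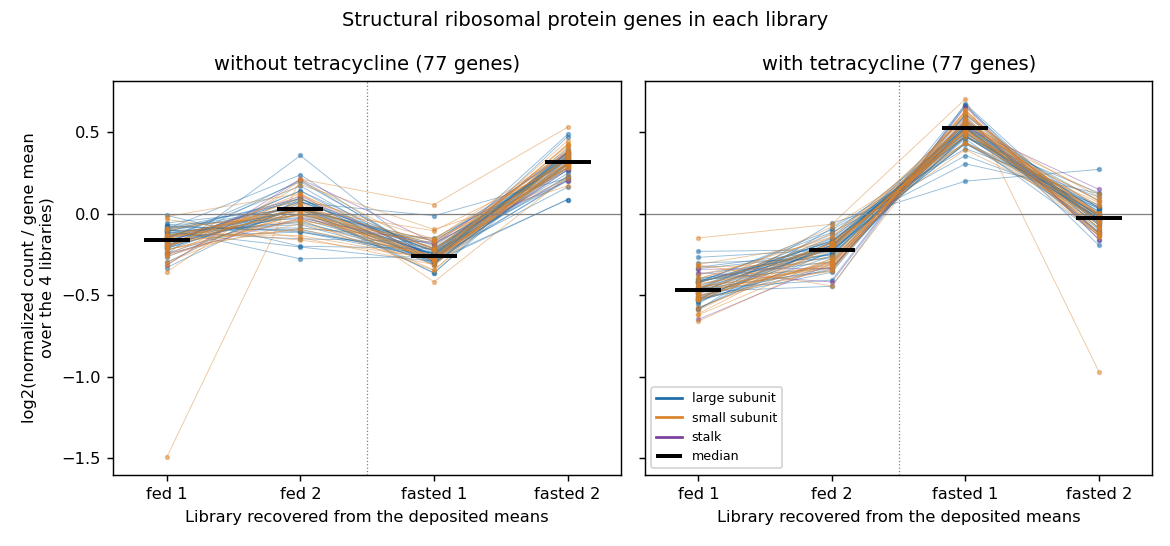
Normalized count of each of 77 structural ribosomal protein genes in the 4 libraries behind each table, as log2 of the count over that gene's mean of the 4 libraries (lines, genes by subunit; black bars, medians). The lines run nearly parallel. Without tetracycline the fasted libraries lie on either side of the fed ones, and with tetracycline both lie above them; the lines that dip away are Rps27.

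The libraries show where these medians come from. Summed over the 77 structural genes, the normalized counts without tetracycline were 2325976 in fed 1, 2652134 in fed 2, 2192579 in fasted 1 and 3262782 in fasted 2. The fasted libraries were thus the lowest and the highest of the 4, and the fed ones lay between them. Fasted 2 was the highest library for 71 of the 77 genes and fasted 1 the lowest for 58. In no structural gene were both fasted libraries above both fed ones, where 19.9% of genes whose mean reached 50 were, and in none were both below, where 24.5% were. Leaving out fasted 2 put the median log2 change of the members at -0.18, and leaving out fasted 1 put it at 0.37, so its direction without tetracycline rests on which fasted library is counted.

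With tetracycline the sums were 1937484 in fed 1, 2287369 in fed 2, 3853265 in fasted 1 and 2673554 in fasted 2. Both fasted libraries exceeded both fed ones. This held for 76 of the 77 structural genes, where it held for 15.8% of all genes whose mean reached 50 and for 16.8% of those whose mean reached 5000; the exception was Rps27. Fasted 1 was the highest library for 76 genes. The median over the members stayed positive whichever library was left out, at 0.30 without fasted 1 and 0.85 without fasted 2. With 2 libraries against 2, an exact two-sided permutation test of a single value cannot give a p below 0.333, so none is reported.

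The fasted libraries differed from each other about as much as the sides did, or more. Fasted 2 over fasted 1 had a median log2 ratio of 0.57 over the structural genes without tetracycline, positive in 77 of 77. The same ratio was -0.56 with tetracycline, positive in 1 of 77. The fed libraries differed less, by medians of 0.19 and 0.24. Over all genes whose mean reached 50 these ratios had medians between 0.00 and 0.08. Over genes whose mean reached 5000, a more similar level, the medians were -0.23 and 0.52 on the fasted side without and with tetracycline, the opposite sign to the structural genes. On the fed side they were 0.17 and 0.09, so the fed difference without tetracycline was close to that of other abundant genes.

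Cell markers also differed between those libraries. With tetracycline the Paneth cell markers whose counts could be recovered (3 of 5) summed to 321145 normalized counts in fasted 1 and 56230 in fasted 2, with 72895 and 81348 in the fed libraries. Lymphocyte markers (4 of 7) came to 17433 and 3112 in fasted 1 and 2, and to 52867 and 14058 in fed 1 and 2. Sis, the sucrase of mature enterocytes and the only one of 5 enterocyte markers recovered, ran the other way, at 44593 in fasted 1 and 238224 in fasted 2. Without tetracycline fasted 1 and fasted 2 held 130383 and 157621 Paneth marker counts and 5773 and 11271 lymphocyte marker counts, with 13364 and 16800 lymphocyte marker counts in fed 1 and 2. Erythrocyte markers (4 listed) came to 24428 and 34797 fasted against 87003 and 293090 fed without tetracycline. With it they came to 72826 and 11663 against 127568 and 87095. All 4 were lower in both fasted libraries than in both fed ones in each table. That order held for 24.5% of genes whose mean reached 50 without and 15.0% with tetracycline. Myeloid markers (5 of 5 recovered without and 4 of 5 with tetracycline) came to 996 and 1355 fasted against 1877 and 3124 fed without tetracycline and to 893 and 382 against 1929 and 1241 with it. Stromal markers (4 of 5 and 5 of 5) came to 100 and 283 against 253 and 945, and to 466 and 202 against 568 and 368. In the authors' deposited table without tetracycline, 3 Paneth markers were called higher, and 3 lymphocyte, 3 stromal, 4 erythrocyte and 1 myeloid markers lower; with tetracycline 0 markers of these lists were called. In each fasted pair the library with more Paneth and lymphocyte marker counts was the one with more ribosomal protein counts. The fed pairs did not all do so. Without tetracycline fed 1 had more Paneth marker counts than fed 2 (82267 against 75391) and with it more lymphocyte marker counts, and in both tables it had fewer ribosomal protein counts. Stem cell markers (5 of 5) came to 108916 and 31253 in fasted 1 and 2 and 53441 and 114642 in fed 1 and 2 with tetracycline, and to 66667 and 88746 fasted and 112272 and 70184 fed without it. Olfm4 held the larger part of each of these sums. Its log2 fasting change was negative, at -0.46 without and -0.51 with tetracycline. The other 4 stem cell markers had positive changes in each table, and the medians of the list were 0.55 and 0.44. Cycling markers (6 of 6) came to 36506 and 22755 fasted and 33832 and 51846 fed with tetracycline, and to 25837 and 32935 fasted and 50614 and 32776 fed without it. Both lists ran with the ribosomal protein sums within each fasted pair, and in the fed pairs with them only with tetracycline. The 7 epithelial markers of the crypt were all listed. Those recovered summed to 501557 and 331082 in fasted 1 and 2 and 409143 and 494327 in fed 1 and 2 without tetracycline (6 of 7), and to 166993 and 224674 fasted and 202121 and 201996 fed with it (4 of 7). Among them Krt20, a keratin of differentiated cells, had 111556 and 34867 in fasted 1 and 2 without tetracycline, and Vil1, the brush border protein villin, 173985 and 80262. Epcam (95584 and 69262) and Cdh1 (47197 and 43706) were also lower in fasted 2. Krt19 (57401 and 82324) and Krt18 (15833 and 20662) were higher there. With tetracycline Krt20 had 18971 and 70746, Cdh1 37240 and 50092, Krt19 87233 and 88783, and Krt18 23549 and 15054. The part of cell mixture in the ribosomal protein values was not tested, and in bulk RNA more cells of a type and more RNA per cell cannot be told apart.

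Because these genes are abundant, their part of the whole library is itself a measure. From the rebuilt group means, the members took 3.91% of normalized counts on the fed side and 4.18% on the fasted side without tetracycline. With tetracycline they took 3.55% and 4.76%. In single libraries, over the genes whose counts were recovered, the structural genes took 5.11% and 5.15% in the fed and 4.15% and 7.18% in the fasted libraries without tetracycline. With tetracycline the shares were 4.24% and 4.84% against 8.80% and 4.63%. On this scale fasted 2 with tetracycline fell within the fed range, so the non-overlap seen after size-factor scaling did not hold for the share of recovered counts. That total leaves out the genes with a mean above 130000, whose counts were not recovered.

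Genes of the small subunit had medians of 0.15 and 0.66 without and with tetracycline, and those of the large subunit 0.15 and 0.59. Rps6, the small-subunit protein phosphorylated downstream of mTOR, stood at 41635 and 41377 normalized counts in the fed and 37454 and 61095 in the fasted libraries without tetracycline. With tetracycline it stood at 32039 and 42203 in the fed and 67656 and 51151 in the fasted ones, with a log2 change of 0.68 ± 0.40 (SE) in the authors' deposited table. The fasted values span the fed ones in the first case and exceed both in the second. Rpsa, the laminin receptor homologue of the small subunit, had 67728 and 76877 fed and 62465 and 98075 fasted without tetracycline. With tetracycline it had 57647 and 65339 fed and 121487 and 78112 fasted. With tetracycline the 4 libraries stood in the same order as for Rps6. Without it fed 1 was below fed 2 for Rpsa, and the fasted values again spanned the fed ones.

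The stalk proteins form the flexible arm of the large subunit that recruits elongation factors. Rplp0, its base, had the highest mean of the members. Its values with tetracycline were 75571 and 95832 in the fed and 171006 and 131357 in the fasted libraries. The authors' deposited table gives it a log2 change of 0.82 ± 0.39 (SE; adjusted p = 0.866 by DESeq2), the largest of the members with a mean of at least 50 in both tables. Without tetracycline the values were 93574 and 109249 fed and 97698 and 144381 fasted, with a change of 0.26 ± 0.29 (SE). Rplp1 and Rplp2, the acidic proteins that pair on the arm, each had a change of 0.05 without tetracycline. With it they had changes of 0.70 and 0.61.

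Rpl5 and Rpl11 carry the small ribosomal RNA of the large subunit and, outside the ribosome, bind Mdm2, the ubiquitin ligase of p53. Rpl11 had 27800 and 36998 fed and 26410 and 36896 fasted normalized counts without tetracycline, and 24696 and 27745 fed against 48593 and 30333 fasted with it. Rpl5 had 2845 and 2506 fed and 2534 and 4257 fasted without tetracycline, and 2095 and 2962 fed against 4154 and 3378 fasted with it. Rpl5 was listed far below Rpl11 in every library, though the ribosome holds 1 of each.

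**Figure D2:**
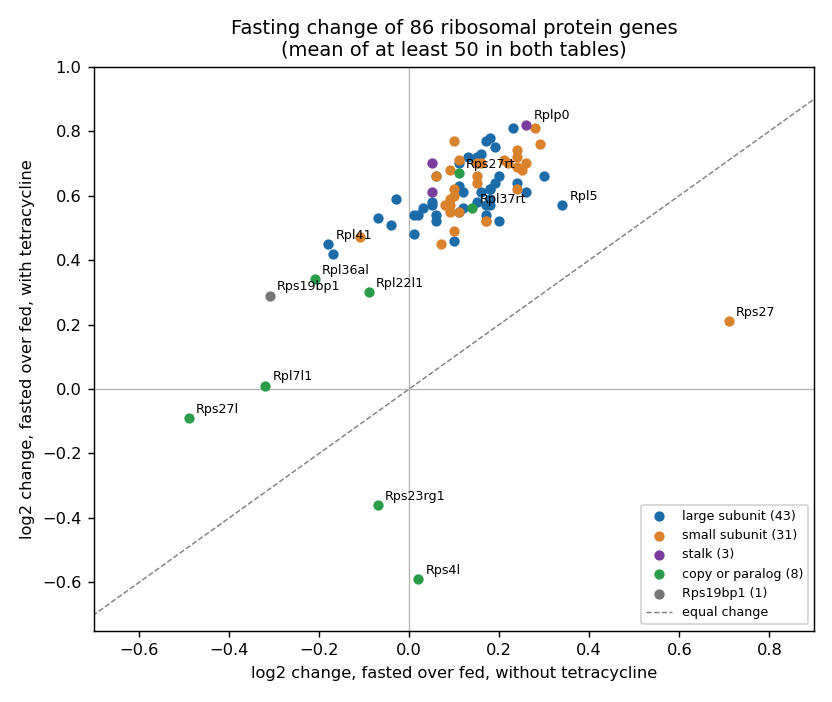
Log2 fasting change without tetracycline (horizontal) against the change with it (vertical) for the 86 members with a mean of at least 50 in both tables, coloured by class. The structural genes form a tight cloud above the dashed line of equal change, with medians of 0.15 and 0.61; Rps27 and several copies lie outside it.

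The question of the study is whether the fasting response differs with the antibiotic. The difference of the log2 changes, with minus without tetracycline, had a median of 0.49 over the structural genes and was positive in 76 of 77, where 8790 of 17571 tested genes were positive. Rps27 was the exception. No member passed the Wald test of the difference with Benjamini-Hochberg adjustment over 17571 genes (0 of 87, against 0.0228% of all genes), and 0 members had an unadjusted p under 0.05, against 1.05% of all genes. Among members with a mean of at least 50 in both tables, the largest difference was that of Rps14, a small-subunit protein, at 0.68 ± 0.50 (SE; adjusted p = 1 by the Wald test over all genes). Rplp1 followed at 0.64 ± 0.53 and Rpl41, the shortest ribosomal protein, at 0.63 ± 0.49 (SE). The smallest differences of structural genes apart from Rps27 were 0.23 ± 0.51 for Rpl5 and 0.32 ± 0.48 (SE) for Rpl10. The median over the members kept its sign whichever of the 8 libraries was left out, between 0.18 and 0.79.

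The tables were scaled separately, so levels across them are values only. Centred on all genes whose mean reached 1, the structural genes had a median log2 level of -0.30 with over without tetracycline on the fed side, below 0 in all but 1 of 77. On the fasted side it was 0.19, above 0 in 76 of 77. The direction on the fasted side rests on single libraries. Leaving out fasted 1 with tetracycline put the fasted-side median of the members at -0.04, and leaving out fasted 1 without tetracycline put it at -0.06, while the fed-side median stayed between -0.45 and -0.16.

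Copies and paralogs gave the widest changes among the members only through rows with means under 50. Among members with a mean of at least 50 in both tables, a copy had the lowest change and a structural gene the highest. The lowest were Rps27l (-0.49) without and Rps4l (-0.59) with tetracycline, and the highest Rps27 (0.71) and Rplp0 (0.82). The copies comprised broadly used variants (Rpl22l1, Rpl36al, Rpl7l1 and Rps27l), copies known from muscle or testis (Rpl3l and Rpl39l) and retrocopies, which arise from a reverse-transcribed mRNA and carry no introns of their parent. Rpl10l, a testis copy, was listed in neither table. Rpl3l, Rpl39l, Rpl32l, Rps3a2, Rps3a3 and, where listed, Rpl6l had means under 50 and often 0 counts in a library, so their changes are not described.

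Rps27l, a p53-responsive paralog of Rps27, was lower in both fasted libraries without tetracycline, at 4180 and 4480 normalized counts against 5459 and 6665 in the fed ones. The authors' deposited table gives it a log2 change of -0.49 ± 0.26 (SE; adjusted p = 0.496 by DESeq2). With tetracycline it had 4357 and 4499 fasted and 4240 and 5190 fed, which overlap. Rpl7l1, a paralog of Rpl7 used in making the large subunit, had 3919 and 4472 fasted against 5312 and 5189 fed without tetracycline, and overlapping values of 4597 and 5250 against 4445 and 5344 with it. Rps19bp1 had 734 and 892 fasted against 943 and 1075 fed without tetracycline, and 1075 and 997 against 831 and 863 with it, so its order turned over. Among members with a mean of at least 50, these 3 genes and Rpl36al lay below every structural gene in the authors' deposited table without tetracycline, whose lowest was -0.18.

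A ratio within a library is free of the scaling between libraries. Per 100000 structural ribosomal protein counts, Rps27l gave 235 and 251 in the fed libraries against 191 and 137 in the fasted ones without tetracycline. With tetracycline it gave 219 and 227 against 113 and 168. Both fasted libraries were below both fed ones in each table. Of the 8 copies whose mean reached 50 and Rps19bp1, this order held in both tables for 5 (Rps27l, Rpl7l1, Rps19bp1, Rpl36al and Rpl22l1). Over all genes it held for 19.3%, and in the table with tetracycline alone for 58.3%, since the block of structural counts was itself high in those fasted libraries. The structural genes are themselves the denominator, so their ratios centre on no change by construction and their counts cannot be read against the shares of all genes. Of them 10 of 77 showed this order in both tables. Among these was Rps2, at 3833 and 3709 fed against 3080 and 3242 fasted without tetracycline and 3464 and 3816 against 3239 and 3356 with it. The opposite order in both tables was seen in 6 structural genes, Rplp0 and Rps18 among them (1.13% of all genes, with the same limit). Rplp0 gave 4023 and 4119 fed against 4456 and 4425 fasted without tetracycline, and 3900 and 4190 against 4438 and 4913 with it.

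**Figure D3:**
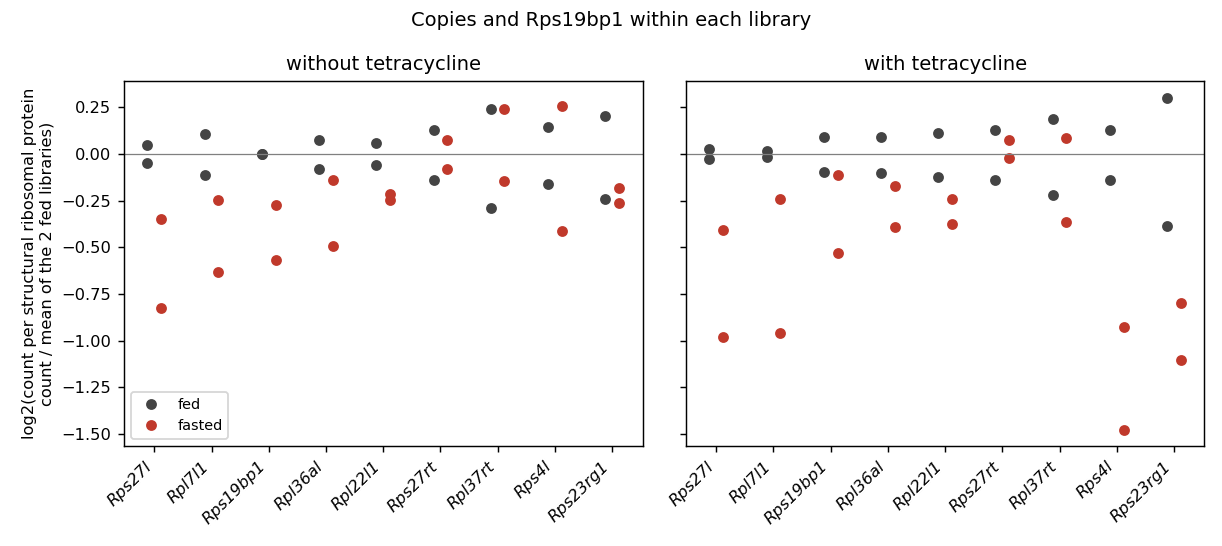
Count of 8 copies and of Rps19bp1 per structural ribosomal protein count of the same library, as log2 over the mean of the 2 fed libraries (grey, fed libraries; red, fasted libraries). Rps27l, Rpl7l1, Rps19bp1, Rpl36al and Rpl22l1 have both fasted points below both fed points in each panel, while Rps27rt and Rpl37rt overlap.

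Rps4l, a retrocopy of Rps4x on chromosome 6 within the gene Tmtc1, differed from the structural genes in its order of libraries with tetracycline. It had 3223 and 4569 fed against 4068 and 3824 fasted normalized counts without tetracycline. With tetracycline it had 3664 and 3600 fed against 2396 and 2438 fasted, where both fasted values lay below the fed ones. The authors' deposited table gives it -0.59 ± 0.35 (SE; adjusted p = 1 by DESeq2) with tetracycline, while Rps4x, its parent, had 0.62. The difference of its fasting changes was -0.61 ± 0.45 (SE), the lowest of the members with a mean of at least 50 in both tables. Rps23rg1, named as a retrogene of Rps23 and overlapping the row Rps23-ps2 on the other strand, had 109 and 91.4 fed against 74.3 and 117 fasted without tetracycline and 75.6 and 143 against 91.3 and 78.4 with it, at a depth that leaves its changes wide (SE 0.46 and 0.59).

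How counts were shared between near-identical sequences bears on several members. Rps27 has 1 parent gene with introns on chromosome 3 and an intronless copy, Rps27rt, on chromosome 9 (chr9:114982366-114982739 in GRCm38, minus strand, within Osbpl10). Over the 252 bases of coding sequence in GENCODE release 21 the pair is 100% identical. Rps27rt was listed at a mean of 24456 normalized counts without tetracycline and Rps27 at 605, so that the parent took 2.41% of the pair there and 2.05% with tetracycline. Rps27 was also the exception among the structural genes with tetracycline, at 215 and 701 fed and 629 and 874 fasted without tetracycline and 465 and 493 fed and 840 and 263 fasted with it. Summed over the pair, the log2 changes were 0.12 and 0.66, near the medians of the structural genes. The values of either gene alone are therefore uncertain.

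Rpl10 likewise stood below a pseudogene row, Rpl10-ps3, which the symbol rule leaves out. How reads were shared between them was not tested. Rpl10 was listed at 6561 and Rpl10-ps3 at 43980 without tetracycline, which leaves Rpl10 13.0% of the pair. Their log2 changes in the authors' deposited tables were close, at 0.20 and 0.24 without and 0.52 and 0.58 with tetracycline. Of the summed mean of a gene and its own pseudogene rows, those rows took 51.8% for Rps23, 39.3% for Rpl28, 33.7% for Rpl10a and 31.3% for Rpl15 without tetracycline. All 116 such rows together equalled 4.54% of the members' summed mean. In addition, 54 of the 92 members overlap another annotated gene, often a small nucleolar RNA in an intron.

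Per kilobase of the GENCODE principal transcript, the structural genes had a median level of 37457 normalized counts without and 38513 with tetracycline. Rplp1 was the highest, at 107383 fed and 111339 fasted without tetracycline and 87491 and 141667 with it. Rpl41, Rps2, Rplp0 and Rps18 held the next ranks in each table. Rpl12, Rpl5 and Rps27 were the lowest, at means of 1425, 1484 and 1754 per kilobase without tetracycline. The order of the highest 5 was the same but for Rpl41, Rps2 and Rplp0, whose neighbouring levels are closer than the spread between libraries. The low ranks of Rpl5 and Rpl12 stand on the deposited assignment of reads and on the listed transcript lengths.

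Of the paralogs, Rpl36al, a copy of Rpl36a with 87.7% identical coding bases, stood at 6871 per kilobase without tetracycline. Rpl22l1 (67.5% identical to Rpl22) stood at 8009 against 7234 for Rpl22, levels that are close for a paralog and its parent. Rps27l shares 76.2% of coding bases with Rps27 and stood at 10413, and Rpl7l1, with 54.4%, at 1812. These identities lie below that of the pair Rps27 and Rps27rt.

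The start of the mRNA carries the TOP. Each line below gives the 30 bases around the start site in the RefSeq table of GRCm38.p6, 15 before the start base and 15 from it on, on the gene's strand. Capitals mark the start base and, where it is C or T, the run of pyrimidines it opens. The first 4 are the structural genes with the highest means among those whose start is C followed by at least 4 pyrimidines; Rps27 and Rps27rt are the pair identical in coding sequence; the last 4 are the members with a mean of at least 50 that lay below all structural ones without tetracycline.
Rps6: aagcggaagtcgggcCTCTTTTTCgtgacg
Rps18: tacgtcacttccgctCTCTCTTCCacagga
Rps10: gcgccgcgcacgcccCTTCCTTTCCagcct
Rplp2: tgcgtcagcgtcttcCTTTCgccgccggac
Rps27: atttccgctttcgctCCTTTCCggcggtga
Rps27rt: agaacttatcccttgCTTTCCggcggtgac
Rps27l: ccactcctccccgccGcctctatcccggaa
Rpl7l1: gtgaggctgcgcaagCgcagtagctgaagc
Rps19bp1: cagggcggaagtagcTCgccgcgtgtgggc
Rpl36al: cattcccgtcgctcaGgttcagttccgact

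The windows lie at chr4:86857353-86857382 for Rps6, chr17:33955651-33955680 for Rps18, chr17:27635230-27635259 for Rps10 and chr7:141447636-141447665 for Rplp2. Those of the identical pair are chr3:90213634-90213663 for Rps27 and chr9:114982725-114982754 for Rps27rt. The last 4 are chr9:66946071-66946100 for Rps27l, chr17:46782642-46782671 for Rpl7l1, chr15:80264292-80264321 for Rps19bp1 and chr12:69184053-69184082 for Rpl36al. Rps27l and Rplp2 are on the plus strand and the other 8 on the minus strand.

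RefSeq entries were found for 68 of the 92 members. A start base C followed by at least 4 bases that are each C or T was found in 13 of 57 structural members (22.8%) and in 3.01% of all 27025 symbols. Among the related lists it was found in 3 of 17 translation factors and other TOP mRNAs, and in 0 of 69 mitochondrial ribosomal proteins and 0 of 28 ribosome biogenesis genes. The letters CTTTCC, searched from 20 bases before to 30 bases from the start, were on the gene's strand in 19.3% of structural members and 2.83% of all symbols. The reverse complement GGAAAG was there in 0 of the 57 and in 2.69% of all symbols. The windows can overlap the first search. In Rpl18 and Rpl13a the letters lie after a listed start that is not itself C, so the shares depend on how exactly the start is annotated. Structural genes with the tract at the listed start had median log2 changes of 0.11 and 0.61 without and with tetracycline, and the others 0.15 and 0.62.

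Other parts of the translation machinery give the setting. Rack1 is a protein of the small subunit whose symbol falls outside the rule. Rack1 had 61982 and 71064 fed against 62675 and 95106 fasted normalized counts without tetracycline, and 49284 and 64720 against 110786 and 83799 with it. Both fasted values exceeded both fed ones with tetracycline. Without it fed 1 was the lowest library for Rack1, where fasted 1 was the lowest for most structural genes. Translation factors and other TOP mRNAs (23 of 24 listed) had medians of 0.13 and 0.41, with 17 and 22 of 23 positive and 0 called in each table.

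Ribosome biogenesis factors, which process ribosomal RNA and assemble the subunits, had medians of -0.08 and 0.10 over 32 genes, with 0 called. RNA polymerase I and its factors, which transcribe ribosomal RNA, had medians of -0.09 and 0.01 over 12 of 13 genes, with 0 called.

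Mitochondrial ribosomal proteins, which serve the translation of mitochondrial genes and are encoded in the nucleus, had a median of -0.39 without tetracycline. A negative change was listed for 78 of 79, and in 65 both fasted libraries were below both fed ones, where 24.5% of all genes were. With tetracycline the median was 0.03, with 45 of 79 positive. Both fasted libraries were above both fed ones in 19 of the 79, where 15.8% of all genes were, and below them in 9, where 15.0% were. None was called in either table or for the difference (0 of 79 each by the adjusted Wald tests), and the median difference was 0.39, positive in 79 of 79. The cytosolic and the mitochondrial lists were both higher relative to fed with tetracycline than without it, from different starting points. This was not particular to them. The median difference was 0.25 for translation factors and other TOP mRNAs (19 of 23 positive) and 0.17 for ribosome biogenesis (30 of 32). For RNA polymerase I it was 0.10 (9 of 12), with 0 called for the difference in each of these lists.

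**Figure D4:**
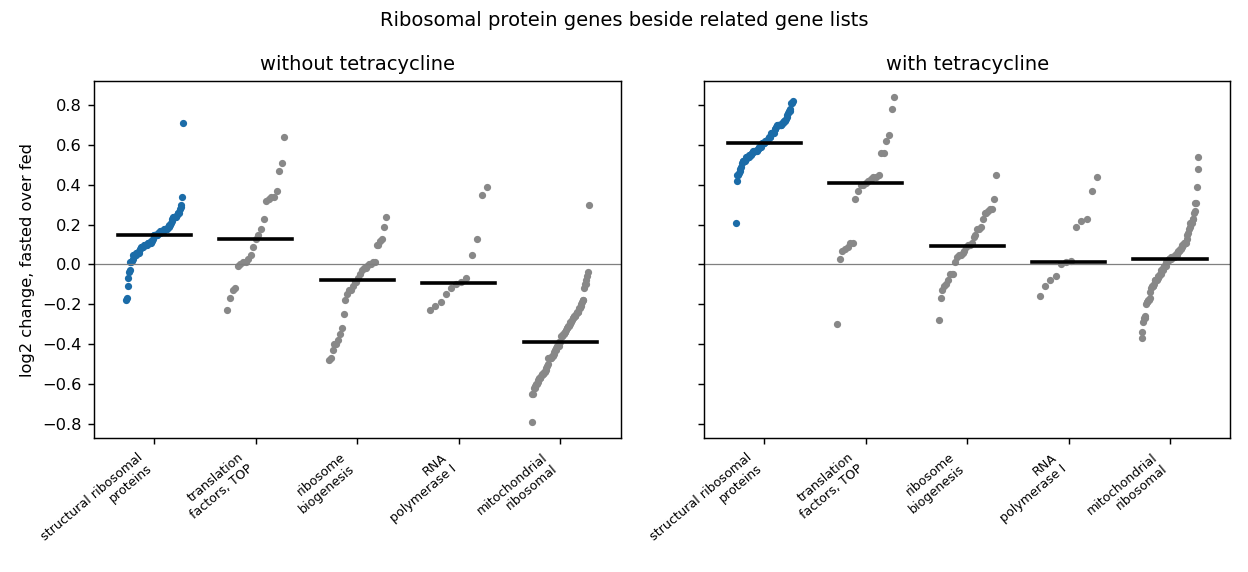
Log2 fasting change of each gene in the 77 structural ribosomal protein genes (blue) and in 4 related lists (grey), with medians as black bars, without (left) and with (right) tetracycline. The blue medians are 0.15 and 0.61, and those of the mitochondrial ribosomal proteins are -0.39 and 0.03.

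Of the 19 genes listed for the control of ribosomal protein mRNA, Ddit4 alone was called. It encodes an inhibitor of mTOR that is induced by stress and glucocorticoids. The authors' deposited tables give it a log2 change of 1.07 ± 0.27 (SE; adjusted p = 0.00532 by DESeq2) without and 1.82 ± 0.35 (SE; adjusted p = 0.000142) with tetracycline. It had 1716 and 2134 fed against 3749 and 4360 fasted normalized counts without tetracycline, and 1943 and 1924 against 6526 and 7161 with it. Both fasted libraries held similar counts of Ddit4 in each table, unlike those of the ribosomal protein genes.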

How the data were processed

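RNA sequencing of crypt cells was available as 2 tables of the authors' fasting comparisons, with the columns that DESeq2 writes, per the file headers. The deposited mean is a signal, the average of counts over size factors. Deposited fold changes and their errors are log2 values, and the deposited statistic is a score, the change over its error. The deposited p-values come with adjusted p-values (Benjamini-Hochberg). The submitters' processing notes name Salmon, DESeq2 and mm10 with no role or version. There are 0 other per-sample columns.

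Whole counts were recovered from the 15-digit means by matching sums of counts per library and the deposited change and error, up to a mean of 130000. A set was accepted if it was the only match, or if its change lay within 1e-06 of the deposited one and the next set at least 30 times farther; these limits were chosen after residuals were seen. Counts were recovered for all members, 92 and 91, and for 99.9% and 99.6% of rows up to that mean. In simulated data the decoder returned the right counts for 91 of 91 members in each table. The means of the highest genes were not decoded. The counts carry no sample, so no count model was run on them. The fit matched when the side read as fasted was the model's reference level, with a median residual of 7.3e-11 against 8.3e-07 otherwise in the table without tetracycline.

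Each side's mean was rebuilt from the deposited mean and change. The difference between tables was tested per gene as the difference of changes over the root of the summed squared errors (two-sided Wald, Benjamini-Hochberg over 17571 genes). In simulations over those genes it called 2 of 50 genes at a log2 difference of 1, 18 of 50 at 2, 33 of 50 at 3 and 45 of 50 at 4, so differences of the size seen here are mostly below its reach. Genes were named by rule: stalk genes, Rpsa, Rps6, Rpl5, Rpl11, paralogs with their parents, the 5 most extreme changes or differences in each direction among the 86 members with a mean of at least 50 in both tables, and called genes of the related lists. Genes of other results were named after their values were seen. Some genes of these lists are not reported here. Members, lists and the roles of members were chosen with earlier results of these data known, and the roles were written after the values had been printed. GENCODE mouse release 21 matched all 92 members by unversioned identifier. Python 3.11.15, NumPy 2.4.6, pandas 2.3.3, SciPy 1.17.1 and Biopython 1.88 were used.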

Additional observations from a re-analysis of the deposited data

How the results depend on the processing

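No paired analysis was possible because the labels give no replicate numbers and the recovered libraries cannot be tied to samples. The 0 members called in either table stayed at 0 under adjusted p limits of 0.01 or 0.1 and for structural genes only. The 0 called for the difference stayed at 0 at an adjusted p limit of 0.1, with the statistic over its robust SD and for genes with a mean of at least 50 in both tables. Leaving out each recovered library in turn, an alternative made possible after seeing the data, gave medians from -0.18 to 0.37 without and from 0.30 to 0.85 with tetracycline, from 0.18 to 0.79 for the difference, from -0.45 to -0.16 for fed levels and from -0.06 to 0.44 for fasted levels. Only the median without tetracycline and the fasted levels crossed 0. Scaling to the total put the medians at 0.10 and 0.39. The fed-side share of members moved from 3.91% to 4.6% without mitochondrially encoded genes and to 4.11% over protein-coding genes, and with tetracycline from 3.55% to 4.04% without mitochondrially encoded genes. Leaving those genes out also raised the fasted-side share, from 4.18% to 4.79% without and from 4.76% to 5.47% with tetracycline. These rises were smaller than the SD between the fasted libraries. With 2 libraries a side and a median error of 0.40 with tetracycline, log2 changes near 0.61 are not resolved for single genes.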
